A study of Arabidopsis thaliana with 3 samples.

Results

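ABCG9, ABCG16 and ABCG33 are 3 of the 43 ABCG transporter genes of Arabidopsis thaliana, and they were chosen by the presence of peaks of the transcription factor FHY3 at or beside them. Every peak whose interval overlapped the span of one of these genes, extended by 3 kb on each side, was taken as a member peak. There were 3 such peaks among the 1475 nuclear peaks of replicate 1 and 4 among the 1354 of replicate 2. Because peak calls of these same lists chose the genes, the presence of a peak is a description and supports nothing. The samples were inflorescences carrying flowers of stage 8 and younger, from plants of the fhy3-4 mutant that expressed 35S:3FLAG-FHY3-3HA and grew in long days. Both ChIP samples and the input sample share this genotype, so every value concerns the tagged protein under the constitutive 35S promoter and not FHY3 at its own level or in its own cells. No source used here states the plants' age, and the input sample was not analysed here.

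ABCG proteins are membrane pumps that use ATP to move lipids, hormones and other small molecules out of or into plant cells. The smaller kind, ABCG1 to ABCG28, carries 1 nucleotide-binding domain and 1 membrane domain and works as a dimer, while the full-size kind, ABCG29 to ABCG43, carries both domains in duplicate in 1 chain. In flowers they are best known for building the pollen wall and the cuticle. FHY3 descends from a transposase, binds DNA directly and is best known for switching on genes in far-red light.

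Each ChIP replicate had a peak list of its own, with a start, an end and a score given by the authors for every peak. The scale of that score is not stated, so it was used only to describe, rank or filter peaks within a list, with the same lowest value and the same top value of 3100 in both. The median nuclear peak scored 42.8 in replicate 1 and 55.4 in replicate 2. The lists hold no read counts, so the sequencing depth is unknown and the counting error of a value of 1 peak cannot be estimated. Gene spans were those of TAIR10.1, without strand, while no source used here states which build the peaks were placed on. All distances between peaks and genes assume that both share 1 frame, and gene ends are called low or high by coordinate, not upstream or downstream.

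At ABCG9 (AT4G27420), which with ABCG31 is known to help load sterol glycosides onto the pollen coat, both replicates had 1 peak, in the stretch between ABCG9 and its neighbour on the low-coordinate side. The peak of replicate 1 lay on chromosome 4 from 13711151 to 13712001, was 851 bp wide and scored 81.8. The peak of replicate 2 ran from 13711155 to 13712152, was 998 bp wide and scored 93.8. Starts differed by 4 bp and ends by 151 bp, so the peaks had nearly the same outer edge and differed on the side facing ABCG9. The score was rank 451 of 1475 in replicate 1 (30.6% from the top) and rank 503 of 1354 in replicate 2 (37.1%).

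Neither peak touched a gene. The stretch between AT4G27415, a small protein-coding gene, and ABCG9 measured 1148 bp, of which the peak of replicate 1 covered 74.1% and that of replicate 2 covered 86.9%. The nearer peak edge was 198 bp from ABCG9 in replicate 1 and 47 bp in replicate 2. The midpoint of the joined peak was 547.5 bp from ABCG9 and 601.5 bp from AT4G27415, so the nearest gene was ABCG9 by a narrow margin. By the midpoint of replicate 1 alone the order turned, with 526 bp to AT4G27415 and 623 bp to ABCG9. No peak of either list lay in the 3209 bp between the other end of ABCG9 and CIP7, named for its interaction with the light signalling repressor COP1. The next peak was 110648 bp away in replicate 1 and 110520 bp in replicate 2, so the ABCG9 peak stood alone in its neighbourhood.

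ABCG16 (AT3G55090), known together with ABCG1 for its part in forming the pollen wall, had the best-ranked member peak. Its main peak lay on chromosome 3 from 20415274 to 20416246 in replicate 1, with a width of 973 bp and a score of 95.8. In replicate 2 it ran from 20415232 to 20416226, with a width of 995 bp and a score of 336. The ranks were 396 of 1475 (26.8%) and 239 of 1354 (17.7%). It was thus nearer the top of the list in replicate 2 than in replicate 1.

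The main ABCG16 peak bridged ABCG16 and AT3G55080, whose ends lie 139 bp apart. Both peaks covered the whole of that gap. Most of each peak lay in AT3G55080, with 770 bp in replicate 1 and 812 bp in replicate 2, while 64 bp and 44 bp lay in ABCG16. The midpoint of the joined peak was inside AT3G55080 and 444 bp from ABCG16, so the nearest gene was AT3G55080 and not ABCG16 in either replicate.

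Replicate 2 had a second peak at ABCG16, at the opposite end of the gene. It ran on chromosome 3 from 20418717 to 20419394, was 678 bp wide and scored 36.4, rank 909 of 1354 (67.1%). Of its width 194 bp lay in ABCG16 and 484 bp in the 1368 bp that separate it from ABCG17, the next gene of a cluster formed by ABCG16, ABCG17, ABCG18 and ABCG19. Replicate 1 had no peak overlapping it, and its nearest peak to ABCG17 was the main ABCG16 peak, 4033 bp away. The second peak lay 885 bp from ABCG17, which thereby had a peak within 3 kb in replicate 2 only. ABCG18 and ABCG19 had none within 3 kb, with nearest peaks at 8304 bp and 17593 bp in replicate 1 and 5156 bp and 14445 bp in replicate 2.

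ABCG33 (AT2G37280, also named PDR5) was the only full-size member and had the lowest-ranked shared peak of the 3 genes. Its peak in replicate 1 lay on chromosome 2 from 15650229 to 15650898, was 670 bp wide and scored 36.0, rank 887 of 1475 (60.1%). In replicate 2 it ran from 15649976 to 15651065, was 1090 bp wide and scored 90.2, rank 514 of 1354 (38.0%). The replicate 1 peak was below the median score of its list and the replicate 2 peak above it. The replicate 1 peak lay wholly inside the replicate 2 peak and covered 61.5% of it.

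This was the only member peak with its midpoint inside the ABCG gene. All 670 bp of the replicate 1 peak lay in ABCG33, and in replicate 2 897 bp lay inside it and 193 bp in the 697 bp between ABCG33 and RPS5B, a ribosomal protein gene. The midpoint was 394.5 bp from the low-coordinate end of the gene in replicate 1 and 351.5 bp in replicate 2, of a gene length of 6489 bp. The rest of the gene had no peak in either list. ABCG2, a suberin transporter gene on the same chromosome at 16753 bp from ABCG33, had its nearest peak 22512 bp away in replicate 1 and 22345 bp in replicate 2. In both lists that nearest peak was the ABCG33 peak itself.

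**Figure D1:**
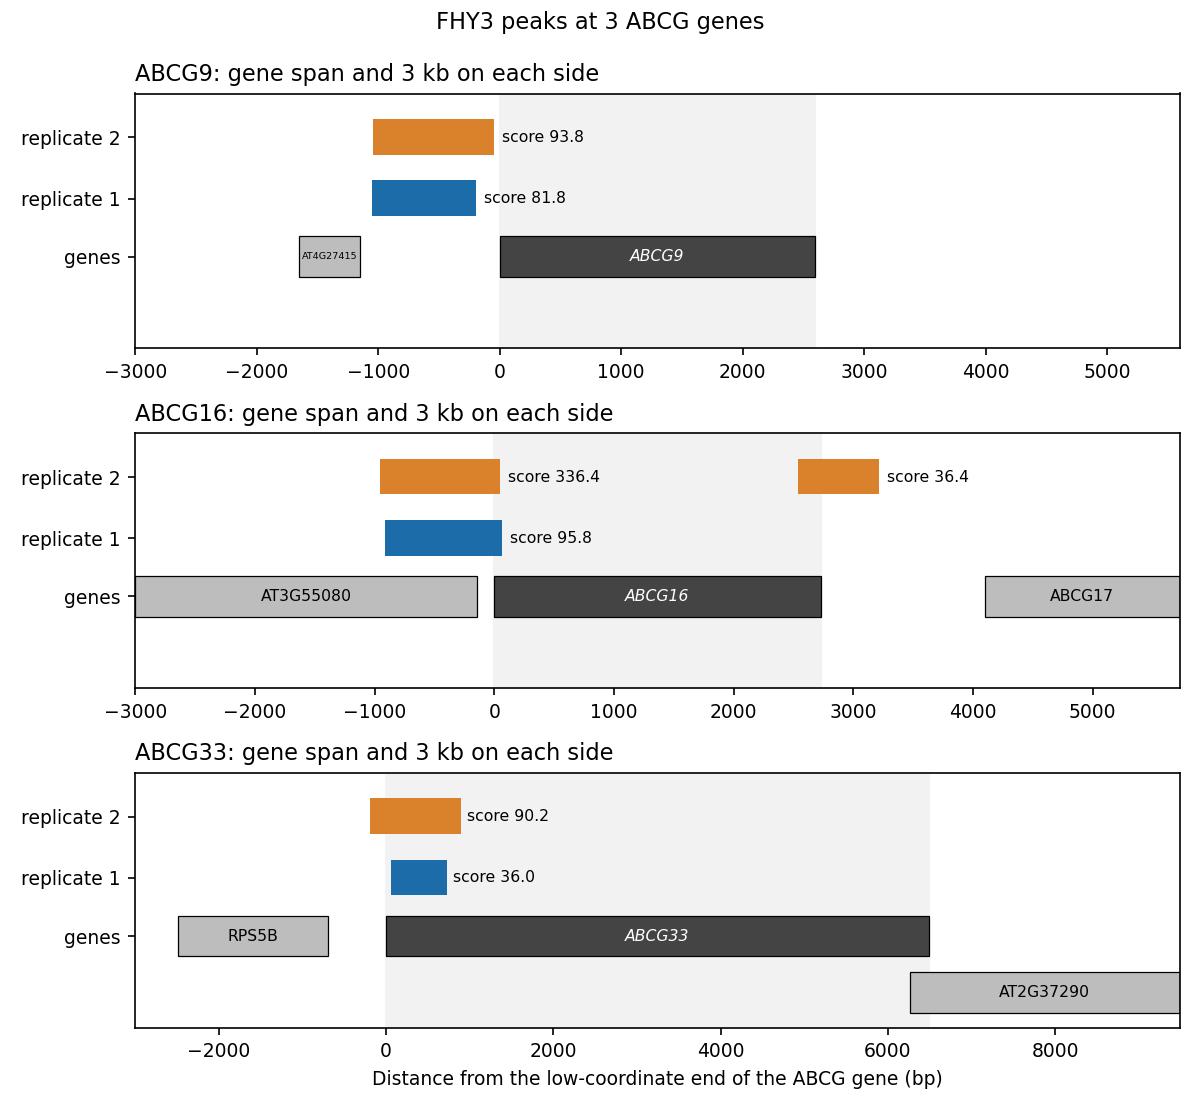
Peaks of replicate 1 (blue) and replicate 2 (orange) at ABCG9, ABCG16 and ABCG33, with the authors' score beside each; the horizontal axis is the distance in bp from the low-coordinate end of the ABCG gene (dark box, grey shading), and pale boxes are neighbouring protein-coding genes. The ABCG9 peaks lie between genes, the main ABCG16 peaks lie mostly in AT3G55080, the ABCG33 peaks lie mostly inside ABCG33, and the second ABCG16 peak is seen in replicate 2 only.

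At all 3 genes the shared peak lay at the low-coordinate end of the gene. Without strand nothing is read from this, and the second ABCG16 peak, in replicate 2 only, lay at the high-coordinate end. The midpoint of the joined peak was 547.5 bp outside that end at ABCG9, 444 bp outside it at ABCG16 and 351.5 bp inside it at ABCG33. Whether that end holds the transcription start was not tested, because strand was not given. No gene of another biotype in the table, such as a non-coding RNA gene, overlapped any of the 7 member peaks.

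The 3 pairs varied in how well the replicates matched. The overlap made up 93.9% of the joined peak at ABCG16, 84.5% at ABCG9 and 61.5% at ABCG33, beside a median of 80.1% over all 944 overlapping pairs. The midpoint of replicate 2 was 77.5 bp higher in coordinate than that of replicate 1 at ABCG9, 31 bp lower at ABCG16 and 43 bp lower at ABCG33. The median shift over all pairs was 73.5 bp in either direction. Relative to its own list, replicate 2 ranked better at ABCG16 and ABCG33 and worse at ABCG9, and it ranked better at 43.5% of all pairs. With 1 peak per gene and replicate, these differences carry no test.

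**Figure D2:**
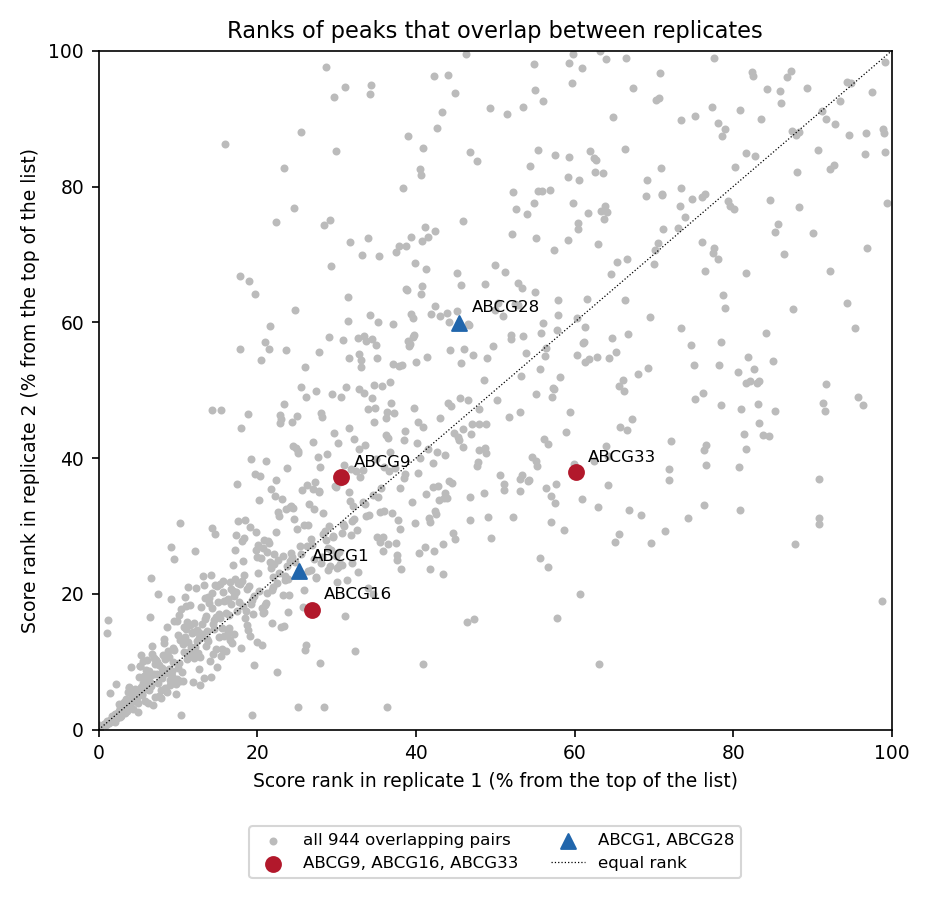
Rank by the authors' score within each list, as percent from the top, in replicate 1 (horizontal) and replicate 2 (vertical) for all 944 pairs of overlapping peaks (grey), for ABCG9, ABCG16 and ABCG33 (red) and for ABCG1 and ABCG28 (blue triangles). The dotted line marks equal rank; ABCG16 (26.8% and 17.7%) and ABCG33 (60.1% and 38.0%) lie below it, nearer the top in replicate 2, and ABCG9 (30.6% and 37.1%) lies above it.

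The place of the member peaks among shared peaks differed between genes and replicates. Among the 922 peaks of replicate 1 that overlapped a peak of replicate 2, those of ABCG16, ABCG9 and ABCG33 stood 42.3%, 47.9% and 79.9% from the top. Among the 904 such peaks of replicate 2 they stood at 26.3%, 54.0% and 54.9%. None of the 3 genes reached a score of 100 in both replicates, and ABCG16 alone reached it in replicate 2. Across all protein-coding genes, 2.96% had a peak of that score within 3 kb in both lists.

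The same window was then applied to the whole ABCG family, with all 27444 nuclear protein-coding genes as background. In replicate 1, 6 of 43 ABCG genes had a peak within 3 kb (14.0%), against a background of 7.24%. In replicate 2 it was again 6 of 43, against 7.6%. In both lists it was 5 of 43 (11.6%, 95% Wilson interval 5.07 to 24.5%), against 5.45% of all genes. The 5 include the 3 chosen genes, so this count is not read as an excess of the family. Of the 40 other ABCG genes 2 had a peak in both lists (5%, 1.38 to 16.5%), a share close to the background. The intervals cover counting error of genes only, and neighbours such as ABCG16 and ABCG17 can share a peak.

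The further pair with a peak in both lists was ABCG1 (AT2G39350) and ABCG28 (AT5G60740), whose peaks lay just inside the 3 kb limit. ABCG1 is the gene known to act with ABCG16 in pollen wall formation. Its peak lay on chromosome 2 from 16426371 to 16427410 in replicate 1 with a score of 105, and from 16426370 to 16427497 in replicate 2 with a score of 218. The nearer edge was 2675 bp and 2588 bp from ABCG1, and the whole peak lay inside SAC3A (AT2G39340), named for a yeast factor of mRNA export. ABCG1 was the single ABCG gene with a score of at least 100 within 3 kb in both lists, yet the peak was not next to it. By midpoint the peak lay outside the limit, at 3194.5 bp in replicate 1 and 3151.5 bp in replicate 2.

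ABCG28, known for its part in pollen tube growth, had a peak on chromosome 5 from 24432931 to 24433577 with a score of 47.9 in replicate 1. In replicate 2 it ran from 24432969 to 24433763 with a score of 42.6. The nearer edge was 2518 bp and 2556 bp from ABCG28, and the midpoint of the joined peak lay inside AT5G60750. ABCG15 was outside the limit in both lists, at 5056 bp and 5101 bp. ABCG17 was at 4033 bp in replicate 1 and inside the limit in replicate 2, as given above. ABCG20, a suberin transporter gene, had a peak in replicate 1 only, on chromosome 3 from 19835928 to 19836627 with a score of 28.7. It lay 521 bp from ABCG20, inside RS2Z32, a splicing factor gene, and the nearest peak of replicate 2 was 84909 bp away.

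Ordered by the farther of the nearest peaks of both lists, ABCG16 and ABCG33 came first at 0 bp, ABCG9 next at 198 bp, ABCG28 at 2556 bp and ABCG1 at 2675 bp. The median ABCG gene was 43602 bp from a peak in replicate 1 and 38227 bp in replicate 2, with the chosen genes counted. For the 40 other ABCG genes these medians were 53128.5 bp and 45405.5 bp, and for all protein-coding genes 47180.5 bp and 43463 bp. Without the chosen genes, the family median was thus larger than that of all genes in each list. By the farther of both distances it was smaller, 55322.5 bp against 58515 bp. Leaving out genes chosen for near peaks moves the family median up in advance, so nothing is read from these medians. Overlap of the gene span itself in both lists held for 2 ABCG genes, ABCG16 and ABCG33, against 1.93% of all genes. Within 1 kb in both lists it held for ABCG9, ABCG16 and ABCG33, which is 6.98% of the family against 3.18% of all genes. No other ABCG gene met either window. The genes in both counts, and the first ones in the order, were chosen for their peaks, so nothing is read from these shares.

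**Figure D3:**
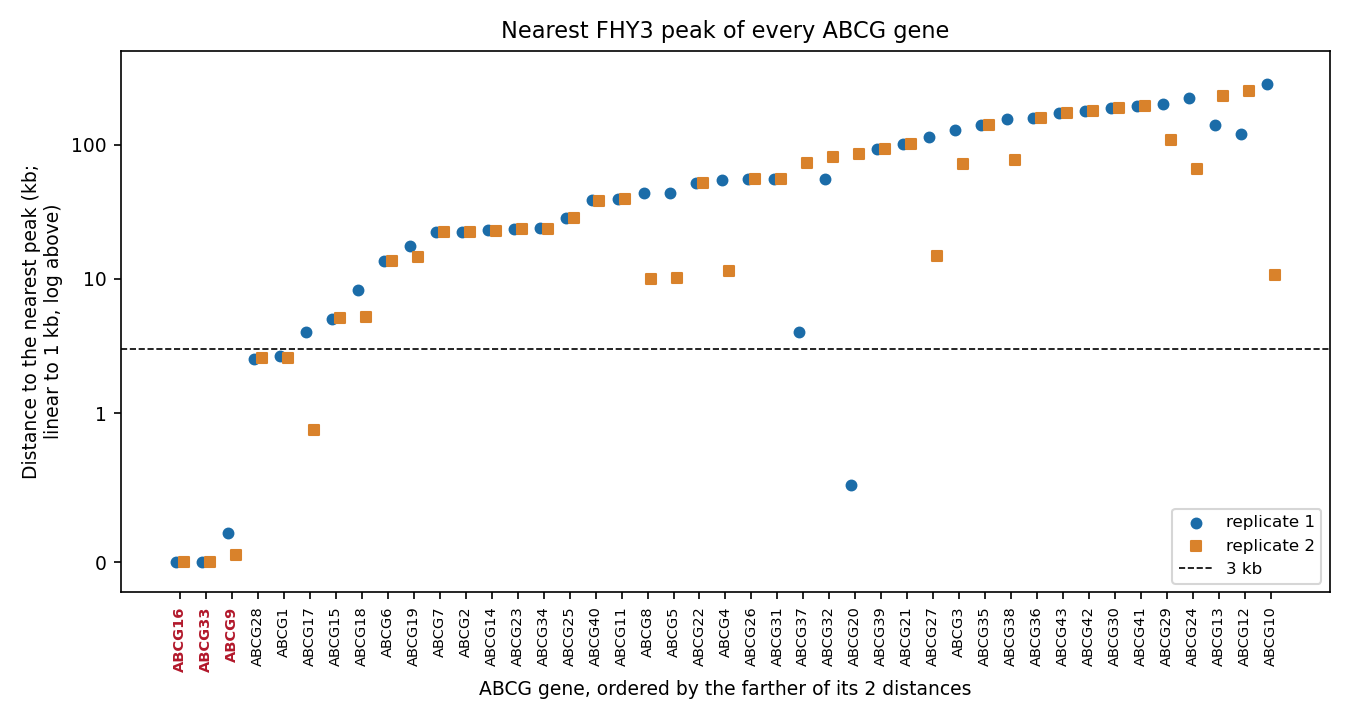
Distance in kb from each of the 43 ABCG genes to its nearest peak in replicate 1 (blue circles) and replicate 2 (orange squares), on an axis that is linear up to 1 kb and logarithmic above, with the 3 kb limit dashed. ABCG16, ABCG33 and ABCG9 (red labels) lie under 1 kb in both lists, ABCG28 and ABCG1 just under the limit, and ABCG17 and ABCG20 under it in 1 list only.

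The ABCG genes were also sorted into lists by what their proteins are known to do, each gene in 1 list only. Genes with several known roles therefore count once, such as ABCG16, which is also known as the jasmonate transporter JAT1 but stands in the pollen list. The lists were not complete, and ABCG28, described above for pollen tubes, and ABCG17, known for abscisic acid transport, stand among the remaining genes. Of 5 genes of pollen and anther development, ABCG1, ABCG9 and ABCG16 had a peak in both lists, while ABCG26, needed for the outer pollen wall, and ABCG31, the partner of ABCG9, had none. Their nearest peaks were 55257 bp and 55388 bp away in replicate 1 and 55215 bp and 55380 bp in replicate 2. This list holds 2 of the 3 chosen genes, so its count of 3, beside 5.45% of all protein-coding genes, is no independent evidence. Of 7 cuticle and suberin genes none had a peak in both lists and ABCG20 had one in replicate 1. The others were ABCG2, ABCG6, ABCG11, ABCG12, ABCG13 and ABCG32, among which ABCG6 came nearest with 13577 bp and 13472 bp.

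None of the 5 genes in the hormone transport list had a peak within 3 kb in either list, a count that leaves out ABCG16 and ABCG17. In this list, the auxin precursor and coumarin exporter gene ABCG37 was 4048 bp from a peak in replicate 1 and 73028 bp in replicate 2. The peak of replicate 1 was the same one as that given for ABCG20. The cytokinin transporter gene ABCG14 was at 22978 bp and 22683 bp, the abscisic acid exporter gene ABCG25 at 28414 bp and 28305 bp, and the abscisic acid importer genes ABCG40 and ABCG30 were at least 38227 bp away in both lists. Of 3 genes of defence or metabolite export, ABCG29, ABCG34 and ABCG36 (PEN3), none had a peak (both lists, interval 0 to 56.1%). Their nearest peak was at 24053 bp and 23683 bp from ABCG34. The intervals of the cuticle, hormone and defence lists all hold 5.45%, so no count of 0 is read as a low share. The remaining 23 genes held ABCG28 and ABCG33 with a peak in both lists (8.7%, beside 5.45% of all genes) and ABCG17 with one in replicate 2. By size class, 4 of the 28 smaller genes (14.3%) and 1 of the 15 full-size genes (6.67%) had a peak in both lists, against 5.45% of all protein-coding genes. These counts include the chosen ABCG9 and ABCG16 among the smaller genes and ABCG33 as the full-size one, and nothing is read from them. The full-size genes ABCG41, ABCG30, ABCG42 and ABCG43, neighbours on chromosome 4, were at least 170974 bp from any peak. The absence of a peak says only that none was called, since depth is unknown.

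**Figure D4:**
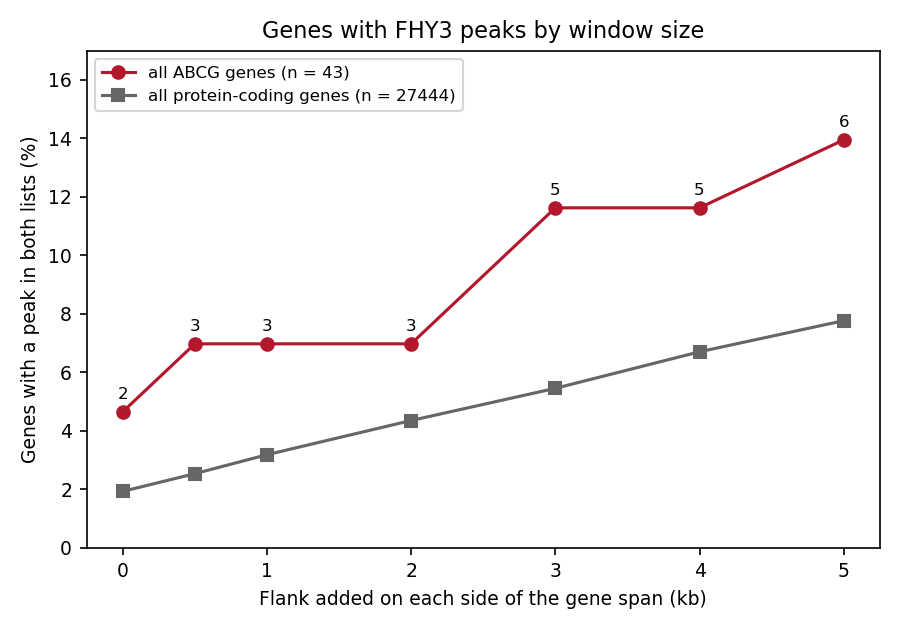
Share of genes, in percent, with a peak in both lists as the flank added to the gene span grows from 0 to 5 kb, for all 43 ABCG genes (red circles, with the number of genes printed above each) and all 27444 protein-coding genes (grey squares). The ABCG count is 2 with no flank, 3 from 500 to 2000 bp, 5 at 3000 and 4000 bp and 6 at 5000 bp; the family was chosen for genes with peaks, so its height above the grey line is a description.

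The other subfamilies of ABC transporters gave 2 of 84 genes with a peak within 3 kb in both lists (2.38%, 95% Wilson interval 0.655 to 8.27%). The share of 5.45% over all protein-coding genes lies inside that interval. These were ABCC13 (AT2G07680), with scores of 3096 and 2487 at a peak overlapping the gene, and ABCF1 (AT5G60790), with scores of 75.8 and 143 at 2915 bp and 2785 bp. ABCC10 and ABCI21 had one in replicate 1 only, and ABCB16 and ABCC9 in replicate 2 only, with scores from 23.4 to 32.6. The difference between the ABCG genes and the other ABC genes was not tested, since the ABCG genes were chosen with their peaks known.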

How the data were processed

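The submitters' processing notes name MACS 1.4.2, Bowtie2 2.2.3 and CASAVA 1.8, and no source used here states their settings, the genome build or which control MACS was given. The authors deposited 1 peak list per ChIP sample, without header, with a score of unstated scale and peak starts and ends in bp. Depth is unknown, and its effect on counts and ranks was not tested.

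Starts were converted to positions counted from 1, and 5 nuclear chromosomes were kept. Distances ran from gene span to peak interval; peaks sharing at least 1 bp formed a pair. The 43 ABCG and 84 other ABC genes were found by symbol or synonym in the TAIR10.1 gene table, which has no strand or sequence, so the planned search for the FHY3 binding word and the protein comparison were not run and no sequence is shown. Counting functions were tested on simulated data. No test was made. Named genes were the 3 genes, other ABCG genes with a peak within 3 kb, genes overlapped by or nearest to those peaks, members of the role lists, and other ABC genes with such peaks. Genes, lists and windows were chosen with earlier results of these data known. Alternatives were other flanks, midpoints, score limits, overlaps, each replicate alone, other rank sets and size classes. Python 3.11.15 with numpy 2.4.6, pandas 2.3.3, scipy 1.17.1 and matplotlib 3.10.9 was used.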

Additional observations from a re-analysis of the deposited data

How the results depend on the processing

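Of 69 alternative values, 35 stayed near the reported one and 34 moved, and no direction was tested. The limit for counts was wide. A change from 5 to 4 or 6 ABCG genes counted as near, as did 2132 background genes with a 5 kb flank beside 1497. The count of 5 ABCG genes with a peak in both lists became 2 with no flank, 3 with a flank of 1 or 2 kb, 1 (ABCG1) with a score of at least 100, 3 (ABCG1, ABCG9 and ABCG16) at or above the median score, and 1 with full-size genes only. It stayed at 5 when both peaks had to overlap by 1 bp or by 50% of each. By midpoint it was 4, without ABCG1, and it was 6 with each replicate alone. The background of 1497 genes (5.45%) became 530 with no flank (1.93%), 874 with 1 kb (3.18%) and 1195 with 2 kb (4.35%). It was 812 with a score of at least 100 (2.96%), 1130 at or above the median score and 1349 by midpoint. With replicate 1 alone it was 1988 (7.24%), and with replicate 2 alone 2087 (7.6%). The other ABC genes fell from 2 to 1 with no flank, 1 kb or 2 kb, by midpoint and with a score of at least 100, and numbered 4 with each replicate alone. In each replicate alone, 2 of 6 ABCG genes were left with no flank. A score of at least 100 left 1 in replicate 1 and 2 in replicate 2. The share of all genes in these single-replicate settings was not computed, so nothing is read from these counts.

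Ranks depended on the peaks compared. Among shared peaks they were 47.9% and 54.0% in replicates 1 and 2 for ABCG9, 42.3% and 26.3% for ABCG16, and 79.9% and 54.9% for ABCG33. Among peaks within 3 kb of a gene they were 40.3% and 49.6% for ABCG9, 36.3% and 24.0% for ABCG16, and 65.1% and 50.6% for ABCG33. By width they were 54.0% and 45.5% for ABCG9, 44.1% and 45.9% for ABCG16, and 70.2% and 38.1% for ABCG33. A rank counted as moved if its change reached the standard deviation of that gene's replicate ranks. That limit was widest for ABCG33, so its ranks are not more stable for being counted as near. By the replicate 1 midpoint, 1 of 3 genes instead of 2 was nearest to its peak. Nearness to gene starts was not run, since strand was not given. The cause of these shifts was not tested. No paired analysis was possible because no second group had peaks to set against the ChIP replicates.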
